A study of Mus musculus with 19 samples.

Results

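The 6 genes followed here encode subunits of the NADPH oxidases in mouse kidney: Nox4, Cyba, Cybb, Ncf1, Ncf4 and Rac2. They were chosen by name, with earlier results of these data known. They are 6 of the 40413 genes in the table of estimated counts. All 6 passed the filter on low counts that left 16421 genes to test. Polyadenylated RNA was sequenced from 1 kidney sample per mouse, in 19 mice of 2 inbred strains, BPH/2J with high blood pressure and BPN/3J with normal blood pressure. Cmpd17b, an agonist of formylpeptide receptors, or its vehicle was injected into the peritoneum once a day over 28 days, with Cmpd17b at 50 mg/kg/day. The groups were BPH/2J with Cmpd17b (5 mice, of which 4 are used), BPH/2J with vehicle (5 mice), BPN/3J with Cmpd17b (5 mice) and BPN/3J with vehicle (4 mice). The mice were adults, and the labels give no exact age. No transgene is named for either strain. Blood pressure and every other inherited difference between the strains come together in this design and cannot be told apart.

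The NADPH oxidases are membrane enzymes that pass electrons from NADPH to oxygen and so make superoxide or hydrogen peroxide. NOX4, the form typical of kidney tubule cells, is active whenever it is present together with p22phox, the product of Cyba. NOX2, the product of Cybb and the form typical of phagocytes, also pairs with p22phox but works only once cytosolic partners, among them p47phox (Ncf1), p40phox (Ncf4) and a Rac GTPase (Rac2 in blood cells, Rac1 elsewhere) have joined it.

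The promoters of the 2 catalytic members are shown because they differ plainly in base composition. Each window runs from 250 bases before the start to 30 bases after it, 280 bases in all, on the gene's own strand, from RefSeq with the build GRCm38.p6, and RefSeq sequences were matched for 4 of the 6 members. The Nox4 window is chr7:87246399-87246678 on the plus strand and the Cybb window is chrX:9469295-9469574 on the minus strand. Capitals mark matches on either strand to GGGCGG (the GC box) or GAGGAA (the PU.1 box, which reads TTCCTC on the other strand).
Nox4: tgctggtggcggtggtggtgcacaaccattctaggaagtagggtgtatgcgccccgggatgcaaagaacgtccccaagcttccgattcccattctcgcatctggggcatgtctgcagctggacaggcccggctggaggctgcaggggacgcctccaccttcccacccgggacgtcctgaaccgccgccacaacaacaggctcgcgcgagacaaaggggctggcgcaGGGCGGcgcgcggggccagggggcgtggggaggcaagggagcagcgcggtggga
Cybb: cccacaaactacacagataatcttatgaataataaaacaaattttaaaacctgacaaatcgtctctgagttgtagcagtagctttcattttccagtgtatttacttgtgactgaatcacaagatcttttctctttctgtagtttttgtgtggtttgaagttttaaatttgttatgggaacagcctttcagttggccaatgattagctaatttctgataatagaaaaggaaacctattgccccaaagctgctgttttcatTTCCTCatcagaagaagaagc
The Nox4 window had 67.9% G or C and 23 CpG pairs, and the Cybb window had 34.3% and 1, where the medians over 32851 promoters were 52.5% and 6. The Nox4 window held 1 GC box and no PU.1 box, and the Cybb window held 1 PU.1 box and no GC box. Those letters occur in 34.7% and 26.0% of all promoter windows of that length, for the GC box and the PU.1 box in that order, so each match describes the window only. Cyba (60.0% G or C) held 2 GC boxes and Ncf1 (53.9%) held 1.

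Total counts ran from 21400119 to 40998662 per library, and the batch label is 2 throughout. Library numbers run in blocks by group, so an effect of library order cannot be told apart from the groups. Left out was the library labelled BPH/2J Cmpd17b replicate 1, which held the heart muscle gene Myh6 at 14200 CPM (counts scaled to the library total) and the kidney tubule transporter Slc34a1 at 5.94 CPM, whereas the other 18 libraries held Slc34a1 at 2202 CPM or more. The 4 remaining BPH/2J Cmpd17b libraries held a list of 12 heart muscle genes at a summed 139 to 200.1 CPM, against 5.80 to 14.7 CPM in BPH/2J vehicle libraries. In the library left out Nox4 stood at 0.808 CPM and Cyba at 27.1 CPM. If Myh6 counts in the other libraries all came from the library left out, its share in them would be at most 0.199%. That share would add no more than 0.0540 CPM to Cyba and 0.0158 CPM to Cybb. Where the heart muscle counts came from was not tested. Mitochondrially encoded genes took 16.6% to 26.6% of counts in BPH/2J Cmpd17b, 16% to 21.7% in BPH/2J vehicle, 12.8% to 15% in BPN/3J Cmpd17b and 13.2% to 16.3% in BPN/3J vehicle libraries.

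The 2 membrane partners of the tubular enzyme were the abundant members. On the scale of CPM per kilobase of transcript, which allows genes to be compared, the level of Cyba averaged 548 ± 247 and that of Nox4 60.6 ± 13.6 (SD, n = 18). The lowest Cyba level, 299, lay above the highest Nox4 level, 81.3. The 4 members of the phagocyte enzyme were all low, with levels per kilobase of 0.826 ± 0.372 for Cybb, 0.615 ± 0.226 for Rac2, 0.417 ± 0.213 for Ncf1 and 0.390 ± 0.266 for Ncf4. The highest of these, 1.46 for Cybb, lay below the lowest Nox4 level, 28.2, while the 4 overlapped one another and their order is not set beyond their spread. Among direct partners, Rac1 had a level of 47.3 ± 4.48 per kilobase and overlapped Nox4, and Cybc1, which helps the membrane subunits mature, had 6.05 ± 1.39. The counts behind these levels ran from 2946 to 11391 per library for Nox4 and from 3 to 42 for Ncf4, so values of Ncf4 rest on few reads.

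**Figure D1:**
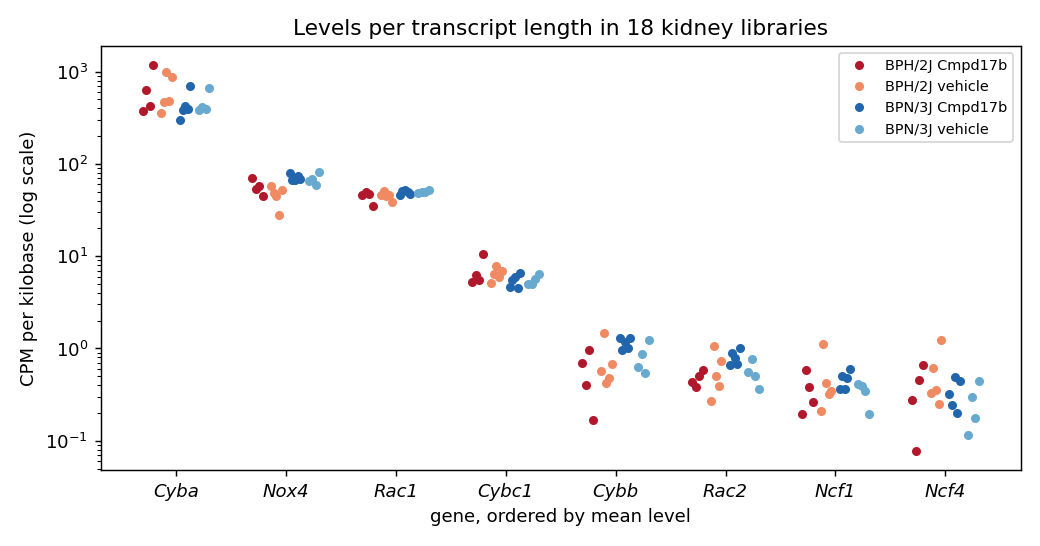
Level of each member and of the partners Rac1 and Cybc1 in CPM per kilobase of transcript (log scale), 1 point per library, coloured by strain and treatment. Cyba and Nox4 stand above all 4 phagocyte members in every library, with Cyba at 299 or more and Cybb at 1.46 or less.

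Nox4, the catalytic subunit of the constitutively active enzyme, was the only member that passed the test in any comparison. On the CPM scale it stood at 215, 182, 169.7, 106 and 194 in BPH/2J vehicle kidneys, against 246, 257, 224 and 305 in BPN/3J vehicle kidneys. The 2 groups did not overlap, and BPH/2J vehicle replicate 4 was the lowest of all. Nox4 was lower in BPH/2J by a log2 fold change of -0.58 (SE 0.166), or 0.671 times the BPN/3J level with a 95% interval of 0.527 to 0.854 (edgeR quasi-likelihood test, adjusted p = 0.0313). Across all genes tested, 10.8% were called in this comparison, 4.94% as lower, and 6.69% were lower without overlap, so 1 call in 6 members is near that background. The call was lost when any of 4 single libraries was left out (BPH/2J vehicle replicate 3, and BPN/3J vehicle replicates 1, 2 and 4), with the log2 fold change between -0.49 and -0.60 and edgeR adjusted p between 0.0581 and 0.106.

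With Cmpd17b, Nox4 stood at 264, 199, 219 and 169.9 CPM in BPH/2J kidneys, against 301, 252, 254, 275 and 258 CPM in BPN/3J kidneys. One BPH/2J library, replicate 2, lay within the BPN/3J range and the other 3 lay below it. The log2 fold change was -0.33 (SE 0.168, edgeR adjusted p = 0.237). Averaged over both arms, Nox4 was lower in BPH/2J by a log2 fold change of -0.45 (SE 0.118, edgeR adjusted p = 0.00923), and 1 of 6 members was called where 23.6% of all genes were. This averaged call held in all 18 fits that left out 1 library.

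The share of mitochondrially encoded counts differed between the strains in the same libraries. With that share as a covariate, a fit added after the data had been seen, the Nox4 log2 fold change was -0.48 with vehicle (edgeR adjusted p = 0.107) and -0.34 averaged over both arms (edgeR adjusted p = 0.152), and no member was called in either. Share and strain overlap so little here that they cannot be told apart by this fit. None of 12 markers of the proximal tubule, the segment in which NOX4 is best known, was called with vehicle. By sign 3 of the 12 were higher in BPH/2J, with a median log2 fold change of -0.16 beside 0.04 over all genes. Their summed level was 38951 to 83080 CPM in BPH/2J and 39992 to 58771 CPM in BPN/3J. Most of that sum was 1 gene, Kap, which averaged 40146 of 54249 CPM in BPH/2J and 30092 of 45874 CPM in BPN/3J. Averaged over both arms, 3 of the 12 were called lower in BPH/2J (Cubn, Slc22a6 and Hnf4a), where 23.6% of all genes were called in either direction. Of 8 fibroblast and mural markers, 5 were called higher in BPH/2J with vehicle, where 10.8% of all genes were called in either direction. Of 11 markers of other nephron segments, 3 were called higher and 1 lower in BPH/2J with vehicle, where 10.8% of all genes were called. Averaged over both arms 4 were called higher and 1 lower, where 23.6% of all genes were called. The part of these differences in the Nox4 result was not tested. In whole tissue, fewer cells of a type and less RNA per cell cannot be told apart.

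**Figure D2:**
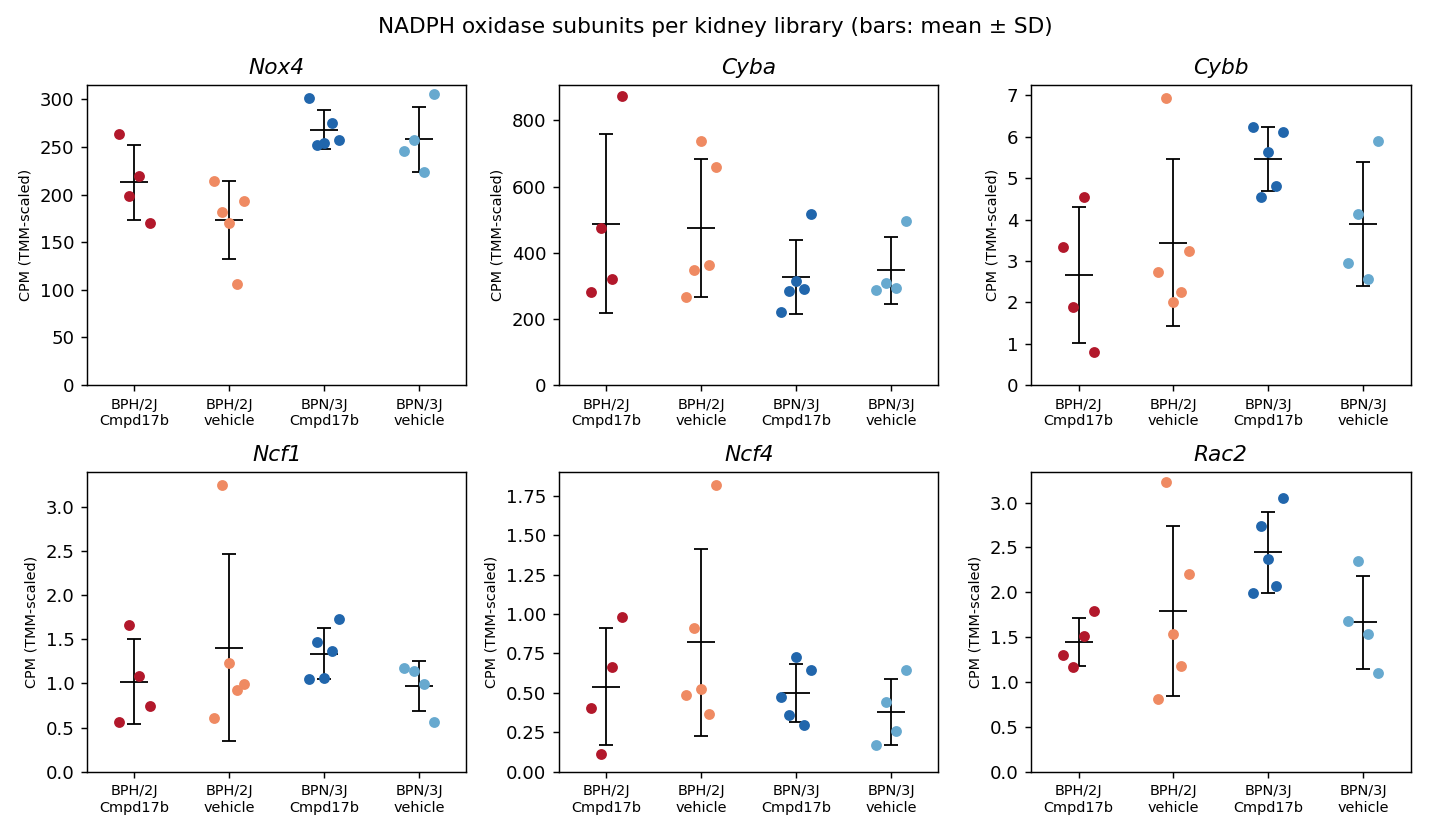
CPM of each member in every library (points), with the mean and SD of each group (bars), for BPH/2J Cmpd17b (n = 4), BPH/2J vehicle (n = 5), BPN/3J Cmpd17b (n = 5) and BPN/3J vehicle (n = 4). Nox4 in BPH/2J vehicle kidneys lies at 215 CPM or less, below all BPN/3J kidneys, while Cyba reaches 739 and 659 CPM in 2 of the 5 BPH/2J vehicle libraries.

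Cyba, the membrane partner shared by NOX4 and NOX2, was spread widely within each group. With vehicle it stood at 267, 349, 739, 362 and 659 CPM in BPH/2J kidneys, against 288, 309, 292 and 497 CPM in BPN/3J kidneys. With Cmpd17b it stood at 281, 475, 319.6 and 874 CPM in BPH/2J kidneys, against 222, 286, 315, 290.0 and 516 CPM in BPN/3J kidneys. The groups overlapped, and 1 or 2 libraries in each lay well above the rest. The log2 fold change between strains was 0.46 (SE 0.349, edgeR adjusted p = 0.458) with vehicle, 0.58 (SE 0.345, edgeR adjusted p = 0.320) with Cmpd17b and 0.52 (SE 0.246, edgeR adjusted p = 0.136) averaged over both arms.

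The libraries high in Cyba were also high in mitochondrially encoded counts. Once group means were removed, the log2 level of Cyba rose with that share over 18 libraries (Pearson r = 0.85, adjusted p = 0.00636; Spearman rho = 0.81, adjusted p = 0.0268; two-sided permutation within groups, adjusted over 12 relations chosen after the data had been seen). The r was 0.78 without the 2 libraries farthest from the median share, 0.92 within BPH/2J and 0.64 within BPN/3J. With the share as a covariate the strain difference of Cyba turned to a log2 fold change of -0.44 with vehicle, -0.68 with Cmpd17b and -0.56 averaged over both arms (edgeR adjusted p = 0.211, 0.0742 and 0.0524). The sign of the Cyba difference was thus not the same with and without that share in the fit. None of the 5 other members passed the adjusted test against the share. Whether Cyba stands out from genes in general was not tested, because the share was not set against all genes. With group means removed, Smim22, Etfb and Ndufa13 each followed Cyba at r = 0.99 over 18 libraries, so other genes shared its pattern.

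**Figure D3:**
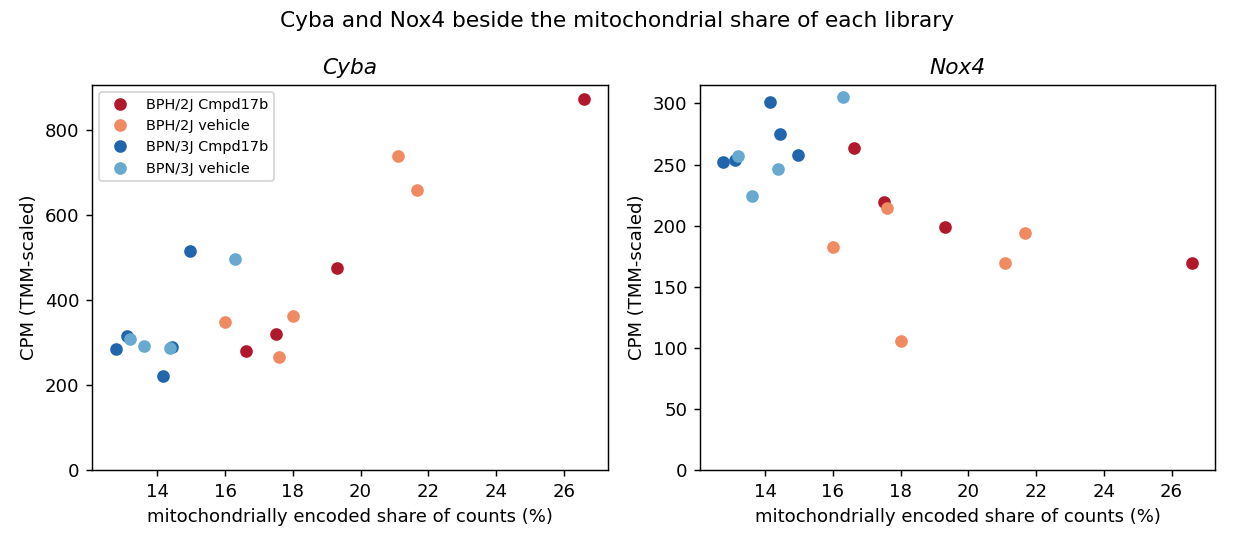
CPM of Cyba (left panel) and Nox4 (right panel) against the percentage of counts from mitochondrially encoded genes, 1 point per library. Cyba is highest, at 874 CPM, in the library with the largest share, 26.6%, and BPH/2J libraries lie to the right of nearly all BPN/3J libraries.

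Cybb, the catalytic subunit of the phagocyte enzyme, stood at 3.35, 1.89, 4.56 and 0.807 CPM in BPH/2J Cmpd17b kidneys, against 6.24, 4.54, 5.64, 4.8 and 6.11 CPM in BPN/3J Cmpd17b kidneys. The groups overlapped by a single library, BPH/2J replicate 4, which lay just above the lowest BPN/3J library. The log2 fold change was -1.03 (SE 0.409), which did not pass (edgeR adjusted p = 0.128), and 0 of 6 members were called in this comparison where 10.4% of all genes were. At an unadjusted edgeR p under 0.05 there were 2 of 6, Cybb and Rac2, where 24.1% of all genes were, and DESeq2 and limma-voom called 0. With vehicle, Cybb stood at 2.72, 6.94, 2.01, 2.25 and 3.24 CPM in BPH/2J kidneys, against 2.96, 4.13, 2.57 and 5.89 CPM in BPN/3J kidneys. These groups overlapped, with BPH/2J replicate 2 the highest of all, and the log2 fold change was -0.18 (SE 0.397, edgeR adjusted p = 0.815). The difference averaged over both arms, -0.60 (SE 0.284, edgeR adjusted p = 0.134), passed in 2 of the 18 fits that left out 1 library. These were the fit without BPH/2J Cmpd17b replicate 4 (-0.80, edgeR adjusted p = 0.0496) and the fit without BPH/2J vehicle replicate 2 (-0.82, edgeR adjusted p = 0.0270).

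Rac2, the Rac GTPase of blood cells, stood at 1.30, 1.17, 1.52 and 1.79 CPM in BPH/2J Cmpd17b kidneys, against 2.00, 2.74, 2.37, 2.07 and 3.06 CPM in BPN/3J Cmpd17b kidneys. The 2 groups did not overlap, as was the case in the lower direction for 6.37% of all genes. The log2 fold change of -0.77 (SE 0.331) did not pass (edgeR adjusted p = 0.161). With vehicle, Rac2 stood at 0.816, 3.22, 1.53, 1.18 and 2.21 CPM in BPH/2J kidneys, against 1.68, 2.34, 1.53 and 1.10 CPM in BPN/3J kidneys. These groups overlapped fully, and the log2 fold change was 0.11 (SE 0.323, edgeR adjusted p = 0.868).

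The cytosolic organizer Ncf1 stood at 0.605, 3.25, 1.23, 0.928 and 0.995 CPM in BPH/2J vehicle kidneys, against 1.18, 1.14, 0.990 and 0.563 CPM in BPN/3J vehicle kidneys. Apart from the high BPH/2J replicate 2, the groups covered the same range, and the log2 fold change was 0.54 (SE 0.424, edgeR adjusted p = 0.467). Without that library it was -0.04. With Cmpd17b, Ncf1 stood at 0.569, 1.66, 1.09 and 0.750 CPM in BPH/2J kidneys, against 1.05, 1.47, 1.06, 1.37 and 1.73 CPM in BPN/3J kidneys, with a log2 fold change of -0.38 (SE 0.430, edgeR adjusted p = 0.617). These groups overlapped as well.

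Ncf4, the modulator that binds a membrane phosphoinositide, stood at 0.484, 0.908, 0.522, 0.366 and 1.82 CPM in BPH/2J vehicle kidneys, against 0.168, 0.440, 0.259 and 0.643 CPM in BPN/3J vehicle kidneys. The groups overlapped, with BPH/2J replicate 5 the highest, and the log2 fold change of 1.08 (SE 0.560) did not pass (edgeR adjusted p = 0.250). With Cmpd17b it stood at 0.401, 0.114, 0.662 and 0.980 CPM in BPH/2J kidneys, against 0.475, 0.360, 0.726, 0.295 and 0.645 CPM in BPN/3J kidneys, with a log2 fold change of 0.07 (SE 0.569, edgeR adjusted p = 0.957). These groups overlapped too, and the BPH/2J values held both the lowest and the highest of them.

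Over the 6 members the median log2 fold change between strains was 0.28 with vehicle and -0.36 with Cmpd17b, beside 0.04 and 0.01 over all genes tested. By sign, 4 members were higher in BPH/2J with vehicle and 2 with Cmpd17b.

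The markers of the leukocytes that carry the NOX2 complex gave the following values beside these results. Of 20 macrophage and monocyte markers 19 were tested, and none was called in any comparison. Their summed level was 74.0 to 101 CPM in BPH/2J Cmpd17b, 73.9 to 252 CPM in BPH/2J vehicle, 95.6 to 133 CPM in BPN/3J Cmpd17b and 97.2 to 103 CPM in BPN/3J vehicle kidneys. BPH/2J vehicle replicate 2 had the highest sum, 252 CPM, and also the highest Cybb, Ncf1 and Rac2. A large part of the sum was 1 gene, Csf1r, which averaged 46.5 of 126 CPM in BPH/2J vehicle and 45.2 of 101 CPM in BPN/3J vehicle kidneys. Lyz2 had a median of 6.71 CPM in BPH/2J vehicle kidneys and a highest value of 81.0 CPM. With Cmpd17b, 17 of the 19 were lower in BPH/2J by sign. With vehicle 12 of the 19 were higher in BPH/2J by sign, and averaged over both arms 7 were. Of 16 lymphocyte and pan-leukocyte markers 14 were tested. With Cmpd17b 2 were called lower in BPH/2J, where 10.4% of all genes were called in either direction. By sign only 1 of the 14 was higher there, with a median log2 fold change of -0.99 beside 0.01 over all genes. With vehicle 1 was called higher, where 10.8% of all genes were called, and 6 of the 14 were higher by sign. Averaged over both arms 3 were called lower and 1 higher, where 23.6% of all genes were called. Ptprc, the leukocyte antigen CD45, averaged 4.96 ± 1.61 CPM in 4 BPH/2J mice and 8.08 ± 1.11 CPM in 5 BPN/3J mice (SD) with Cmpd17b, without overlap (log2 fold change -0.71, edgeR adjusted p = 0.0847). Of 10 neutrophil markers 3 were tested, and 1 was called, S100a9, which was higher in BPH/2J with Cmpd17b (log2 fold change 1.37, edgeR adjusted p = 0.0317). By sign 2 of the 3 were higher in that comparison, where 10.4% of all genes were called. The BPH/2J Cmpd17b libraries also held the raised heart muscle genes described above, and the part of that in S100a9 was not tested. The summed neutrophil list was 6.72 to 8.19 CPM in BPH/2J Cmpd17b, 2.21 to 5.23 CPM in BPH/2J vehicle, 3.26 to 5.29 CPM in BPN/3J Cmpd17b and 2.95 to 4 CPM in BPN/3J vehicle kidneys. The sign of S100a9 there is opposite to that of 17 of the 19 macrophage markers. Mpo and Elane were at 0 in every library of 3 of the 4 groups. In the remaining group, BPH/2J Cmpd17b, where S100a9 was highest on average, they averaged 0.0949 and 0.116 CPM, and both were below the filter. The part of leukocyte content in the values of the members was not tested.

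No member passed the test for an effect of Cmpd17b in either strain. In BPH/2J 0 of 6 were called where 0.164% of all genes were, in BPN/3J 0 of 6 where 0% were, and averaged over both strains 0 of 6 where 0.067% were. At an unadjusted p under 0.05 the count was also 0 of 6 in each, where 3.7%, 2.53% and 3.43% of all genes were, and DESeq2 and limma-voom called 0 as well. Nox4 averaged 213 ± 39.4 CPM with Cmpd17b (n = 4) and 173 ± 41.2 CPM with vehicle (SD, n = 5) in BPH/2J, a log2 fold change of 0.30 with a 95% interval of -0.05 to 0.65. It averaged 268 ± 20.7 CPM with Cmpd17b (n = 5) and 258 ± 34.2 CPM with vehicle (SD, n = 4) in BPN/3J, a log2 fold change of 0.05 with an interval of -0.30 to 0.41. For Cyba the intervals were wider, -0.69 to 0.76 in BPH/2J and -0.82 to 0.64 in BPN/3J.

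In BPH/2J the 4 phagocyte members had log2 fold changes with Cmpd17b of -0.36 for Cybb, -0.46 for Ncf1, -0.62 for Ncf4 and -0.31 for Rac2. In BPN/3J the same 4 had 0.49, 0.46, 0.40 and 0.56. All 8 intervals held 0. The test of the difference between the strains gave -0.85 (SE 0.569) for Cybb, -0.92 (SE 0.604) for Ncf1, -1.02 (SE 0.796) for Ncf4 and -0.87 (SE 0.462) for Rac2, and 0 of 6 members were called where 0.0304% of all genes were. The count was also 0 of 6 at an unadjusted edgeR p under 0.05, where 3.22% of all genes were, and 0 by DESeq2 and limma-voom. All 6 had an edgeR adjusted p that rounds to 1. Most of the 19 macrophage markers tested had the same signs, with 0 of 19 higher with Cmpd17b in BPH/2J and 16 of 19 higher in BPN/3J, and 0 were called in either. Without BPH/2J vehicle replicate 2, the library with the highest macrophage sum, the BPH/2J values of Cybb, Ncf1 and Rac2 turned to 0.07, 0.13 and 0.02.

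**Figure D4:**
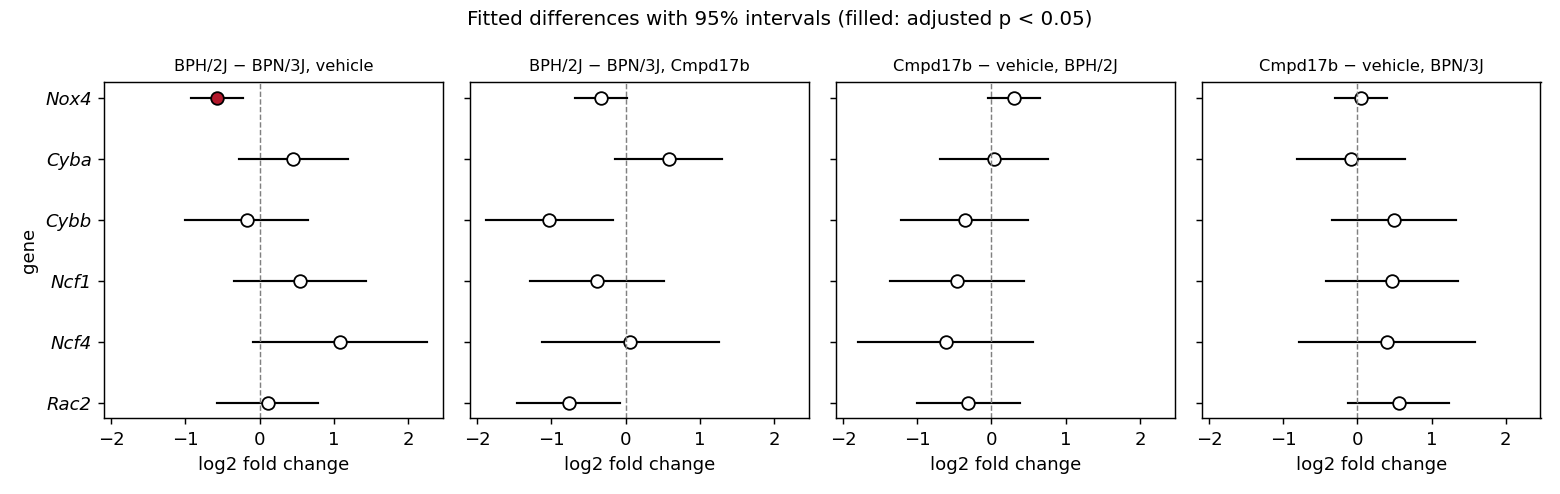
Fitted log2 fold change of each member (points) with its 95% interval (lines) for the strain difference in each arm and the Cmpd17b effect in each strain, where a filled point has an adjusted p under 0.05. Nox4 with vehicle, at -0.58, is the only filled point, and the intervals of Ncf4 are the widest.

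Whether the members moved together from mouse to mouse was asked with group means removed. None of the 15 pairs passed adjustment by Pearson r over 18 libraries. The highest was Ncf1 with Rac2 (r = 0.68, permutation p = 0.0159, adjusted p = 0.238; rho = 0.62, adjusted p = 0.140), which fell to 0.32 without the 2 libraries farthest from the median. Nox4 and Cybb had r = 0.56 (permutation p = 0.0645, adjusted p = 0.459) and rho = 0.73 (permutation p = 0.00599, adjusted p = 0.0898), and r = 0.72 without 2 libraries. Nox4 and its partner Cyba had r = -0.22 (permutation p = 0.512, adjusted p = 0.674). Against the summed macrophage list the highest r was that of Rac2 (0.69, permutation p = 0.0340, adjusted p = 0.204), and it was 0.17 without 2 libraries, BPH/2J vehicle replicates 1 and 2.

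**Figure D5:**
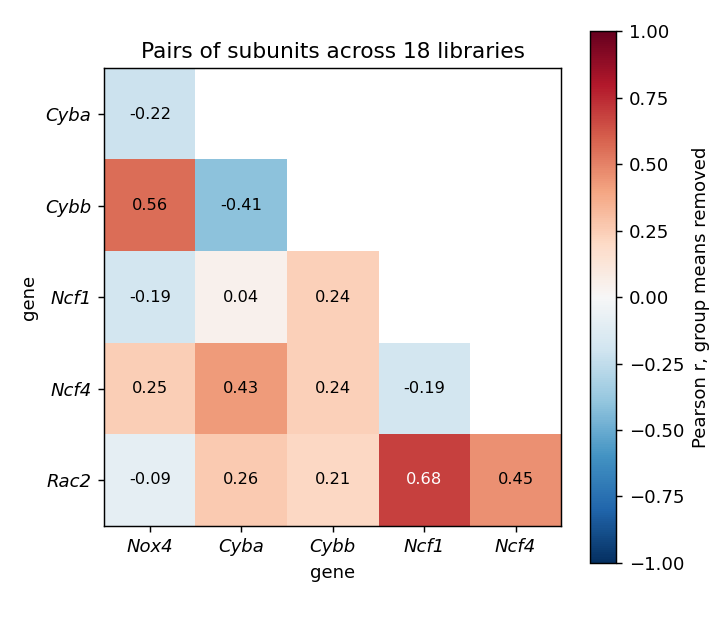
Pearson r of log2 CPM between members across 18 libraries after removal of group means, 1 square per pair. Ncf1 with Rac2 is the highest at 0.68, and no pair passed the adjusted test.

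The genes whose deviations were most like each member's are given as a description. They were sought among 11739 of the 16421 genes tested, in a search that left out genes whose log2 CPM averaged under 1. Genes as low as Ncf1 and Ncf4 could therefore not appear. For Nox4 they were the carnitine transporter Slc22a5 (r = 0.91), the amino acid transporter Slc36a1 (0.90) and the endocytic adaptor Dab2 (0.89). For Cyba they were Smim22, the electron transfer flavoprotein subunit Etfb and the respiratory complex I subunit Ndufa13, all at 0.99, and 3520 genes had an r over 0.5. For Cybb they were the apelin receptor Aplnr (0.93), the leukocyte tetraspanin Cd53 (0.89) and Vangl1 (0.85). For Ncf4 they were Ptprc (0.88), Cacna2d1 (0.88) and Gpsm1 (0.88), and for Rac2 H2-DMa (0.86), Tgtp1 (0.84) and Cd74 (0.82), of which H2-DMa and Cd74 serve antigen presentation. Ncf1 had the fewest genes over 0.5, 114, led by Tnfrsf12a (0.79), Dcdc2a (0.75) and Cldn4 (0.72). Some of these r differed between the strains. Cd74 with Rac2 had 0.92 within BPH/2J and 0.47 within BPN/3J, and Cldn4 with Ncf1 had 0.80 and 0.29. Ptprc with Ncf4 had 0.87 and 0.92, in the same order. The depth, scaling and mitochondrial share of each library enter every such r.

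Of the remaining oxidase genes few were measured well enough to test. Nox3 and Duoxa2 were at 0 in every library, and Nox1, Duox2, Noxa1 and Duoxa1 were below the filter. Duox1, a catalytic subunit that makes hydrogen peroxide, averaged 0.740 ± 0.245 CPM in BPH/2J vehicle (n = 5) and 0.327 ± 0.140 CPM in BPN/3J vehicle kidneys (SD, n = 4). The groups overlapped in each arm, and Duox1 was not called with vehicle (edgeR adjusted p = 0.108) or with Cmpd17b (edgeR adjusted p = 0.236). Averaged over both arms it was higher in BPH/2J by a log2 fold change of 1.01 (SE 0.309, edgeR adjusted p = 0.0236), where 23.6% of all genes were called. Of 9 partners and maturation factors 6 were tested and none was called in any comparison. Rac1 differed between strains by a log2 fold change of -0.14 averaged over both arms (edgeR adjusted p = 0.187), and Cybc1 by 0.27 (edgeR adjusted p = 0.140).

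Of 13 genes that activate or anchor the oxidase, 1 was called lower in BPH/2J in each arm: the kinase gene Prkcd, whose product phosphorylates p47phox. Over all genes 10.8% were called with vehicle and 10.4% with Cmpd17b, so 1 of 13 does not exceed that background. Lower values without overlap were found for 6.69% and 6.37% of all genes in those comparisons. Prkcd averaged 53.5 ± 6.43 CPM over 5 BPH/2J mice and 71.8 ± 4.81 CPM over 4 BPN/3J mice (SD) with vehicle, without overlap (log2 fold change -0.42, edgeR adjusted p = 0.0138). With Cmpd17b it averaged 56.2 ± 3.60 CPM over 4 BPH/2J mice and 76.7 ± 8.91 CPM over 5 BPN/3J mice (SD), again without overlap (-0.45, edgeR adjusted p = 0.00955). Arhgdia, which holds Rac proteins inactive in the cytosol, was higher in BPH/2J averaged over both arms (0.19, edgeR adjusted p = 0.0450). In that comparison 1 of the 13 was called higher and 1 lower, where 23.6% of all genes were called. Of 17 genes that remove superoxide and hydrogen peroxide, 1 was called lower with vehicle and 1 lower with Cmpd17b. Averaged over both arms 2 were called lower and 1 higher. Over all genes 10.8%, 10.4% and 23.6% were called in these comparisons, in that order, so these counts do not exceed that background. The peroxiredoxin gene Prdx1 averaged 667 ± 44.8 CPM over 5 BPH/2J mice and 929.6 ± 81.5 CPM over 4 BPN/3J mice (SD) with vehicle (log2 fold change -0.48, edgeR adjusted p = 0.0344). The mitochondrial superoxide dismutase gene Sod2 averaged 308 ± 30.3 CPM over 4 BPH/2J mice and 392 ± 36.0 CPM over 5 BPN/3J mice (SD) with Cmpd17b (-0.35, edgeR adjusted p = 0.0442). The quinone reductase gene Nqo1 was higher in BPH/2J averaged over both arms (0.34, edgeR adjusted p = 0.0223). The median log2 fold change of these 17 genes averaged over both arms was 0.06, beside 0.03 for all genes.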

How the data were processed

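The authors deposited 1 table of estimated counts (expected counts) per gene for 19 mouse kidney libraries. The submitters' processing notes name Trim Galore 0.6.7 (a read trimmer), STAR 2.7.9a (an aligner) and the build mm39, also called GRCm39. Not given in the sources used here are the quantifier, its annotation and whether it used strand. The deposited counts were rounded to whole numbers. They were tested with edgeR 4.0.16 (robust quasi-likelihood F-test, TMM, filterByExpr with a minimum count of 10 and a minimum total of 15) under R 4.3.3, with Benjamini-Hochberg adjustment over 16421 genes and calls at an adjusted p under 0.05. All 4 groups of 18 libraries entered 1 fit without covariates. The biological coefficient of variation was 0.251. Each library is a separate mouse per the labels. CPM is on the TMM scale of the 18 libraries, except in the library left out and in Myh6 and Slc34a1 values, which are plain CPM. Intervals are 95% intervals of the fit.

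Levels per kilobase used the length of the longest protein-coding transcript in an annotation of an earlier build, for lengths only. No gene coordinates are given, since the files' build is mm39, and promoter windows carry their own build. Correlations used log2 CPM with a prior count of 2 and 100000 permutations within groups. The members and the gene lists were chosen with earlier results of these data known. Genes outside the 6 members were named if called in the oxidase, activation and removal lists (at most 4 per list and comparison), as the direct partners Rac1 and Cybc1, or as the 3 genes most like each member. A gene that this rule also names is not reported here. The naming of Cubn, Slc22a6, Hnf4a, Kap, Csf1r, Lyz2, Mpo and Elane came after seeing their values. Alternatives were DESeq2 1.42.0, limma-voom (limma 3.58.1), DESeq2 size factors, no filter, 1 CPM in 4 libraries, only the groups compared, all 19 libraries, and leaving out each library in turn. The mitochondrial covariate was added later. The strain test with vehicle was checked on simulated counts. Only genes averaging 1 CPM or more were changed there, and the counts had no library-wide variation such as the mitochondrial share. The check therefore does not cover changes in lower genes or such variation. Figures used matplotlib 3.10.9 under Python 3.11.15.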

Additional observations from a re-analysis of the deposited data

Results flagged for a closer look

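Of 24 combinations of member and group, 3 held a library far from the others of its group, where chance flags about 1 in 20. Cyba in BPN/3J vehicle replicate 4 stood at 497 CPM, and the nearest library of its group at 309 CPM. Cybb in BPH/2J vehicle replicate 2 stood at 6.94 CPM, with the nearest at 3.24 CPM, and Ncf1 in the same library at 3.25 CPM, with the nearest at 1.23 CPM.

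In the library labelled BPH/2J Cmpd17b replicate 1, which entered only the fits with all 19 libraries, Cybb stood at 7.92 plain CPM, where the highest vehicle library had 7.52, and Ncf1 at 3.81 plain CPM, where the highest vehicle library had 3.52. That library held the heart muscle gene Myh6 at 14200 and the kidney tubule gene Slc34a1 at 5.94 plain CPM, so it is not like the kidney libraries it is set beside.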

How the results depend on the processing

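The Nox4 calls depended on the processing, and no call of another member did so outside the fits named here. With vehicle the number of members called was 0 rather than 1 with all 19 libraries, with only the groups compared and with the mitochondrial covariate, and 0 to 1 when 1 library was left out. The log2 fold change of Nox4 was then -0.58, -0.58 and -0.48 (edgeR adjusted p = 0.810, 0.0747 and 0.107), and -0.66 to -0.44 over the 18 fits without 1 library. Averaged over both arms the count was 0 with all 19 libraries (Nox4 -0.61, edgeR adjusted p = 0.398) and with the covariate (-0.34, edgeR adjusted p = 0.152), and 1 to 2 without 1 library, where the second gene was Cybb. Under DESeq2, limma-voom, DESeq2 size factors and both other filters Nox4 stayed called in both comparisons. The count of member pairs was 1 rather than 0 with all 19 libraries, and 0 to 1 without 1 library. No member was called for Cmpd17b or the interaction under any alternative. The cause of these changes was not tested.

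Among values that did not pass, 23 reversed sign under other settings. With all 19 libraries, which bring back the library left out elsewhere, Ncf1 became 0.44 between strains with Cmpd17b, the Cmpd17b effect in BPH/2J became -0.023 for Nox4, -0.26 for Cyba, 0.29 for Cybb and 0.37 for Ncf1, the averaged effect became 0.024 for Ncf4, and the interaction became -0.078 for Nox4 and -0.17 for Cyba. With limma-voom Rac2 became -0.0094 between strains with vehicle, Ncf4 -0.24 with Cmpd17b and Ncf1 -0.044 averaged over both arms. With no filter the averaged Cmpd17b effect on Ncf1 became -0.0076. With the mitochondrial covariate the strain difference became -0.44 for Cyba and 0.41 for Cybb with vehicle, -0.68 for Cyba, 0.17 for Ncf1 and -0.83 for Ncf4 with Cmpd17b, and -0.56 for Cyba, 0.071 for Cybb and -0.18 for Ncf4 averaged over both arms. In the same fit the effect of Cmpd17b on Cyba became -0.23 in BPH/2J and 0.016 in BPN/3J, and its interaction -0.25.

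Leaving out 1 library gave 46 further reversals, none in a value that passed. The strain difference with vehicle ran from -0.61 to 0.10 for Cybb, -0.044 to 0.74 for Ncf1 and -0.23 to 0.32 for Rac2. With Cmpd17b it ran from -0.36 to 0.41 for Ncf4, and averaged over both arms from -0.21 to 0.18 for Ncf1. The Cmpd17b effect in BPH/2J ran from -0.41 to 0.25 for Cyba, -0.73 to 0.072 for Cybb, -0.81 to 0.13 for Ncf1 and -0.50 to 0.018 for Rac2. In BPN/3J it ran from -0.0071 to 0.15 for Nox4 and -0.32 to 0.14 for Cyba. Averaged over both strains it ran from -0.25 to 0.085 for Cyba, -0.12 to 0.28 for Cybb, -0.17 to 0.29 for Ncf1 and -0.32 to 0.14 for Ncf4. The Cyba interaction ran from -0.32 to 0.35.

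No paired analysis was possible because the labels number the animals singly and give the groups no shared replicate numbers. Depth limits the low members most: Ncf4 had as few as 3 counts in a library and Ncf1 13.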
